A study of Oryza sativa Japonica Group with 9 samples.

Results

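The rice genome holds a large family of protein phosphatases 2C (PP2C), and 72 of its genes are described here across 6 RNA libraries. They are the genes whose description in the deposited tables contains the words protein phosphatase 2C, after the 9 genes of clade A were set aside. The tables hold 55986 genes. The description of 71 members reads Protein phosphatase 2C family protein, and 1 member, LOC_Os01g36080, is described as a protein kinase and PP2C family protein. None of the 9 clade A genes carries the wording, since the tables describe them by their Arabidopsis relatives. The wording also misses some genes of the family: OsPP18 (LOC_Os02g05630) is described as HOPW1-1-interacting 2 and XB15 (LOC_Os03g60650) as poltergeist like 4, so neither is among the 72.

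The plants were rice seedlings (Oryza sativa, Japonica Group) at the four-leaf stage, of which the above-ground parts were collected. RNA came from 3 genotypes, namely the cultivar Zhonghua 11 (ZH11) as wild type, an OsbZIP23 mutant, and a line with OsbZIP23 overexpressed, the last 2 taken over from an earlier study. The transcription factor OsbZIP23, of the basic leucine zipper class, takes part in the response to abscisic acid (ABA), a hormone of drought. Each genotype was sampled without stress ("normal") and under drought that lasted until all leaves had rolled. Each of the 6 groups was 1 library. The mutant and the overexpressor are called by those names below. The labels used here give neither the kind of mutation, the promoter of the transgene nor the number of plants in a library.

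PP2C enzymes remove phosphate from serine and threonine residues and need a metal ion, magnesium or manganese, to do so. The clade A enzymes hold back ABA signalling by dephosphorylating SnRK2 kinases until an ABA receptor binds them. The other clades are known mostly from Arabidopsis, where clade D enzymes dephosphorylate plasma membrane proton pumps and are inhibited by small auxin up RNA (SAUR) proteins. In the same plant, clade B enzymes dephosphorylate MAP kinases, and POLTERGEIST and its relatives act in stem cell maintenance. The tables do not give the clade of any member, so the genes are described below by locus. In a locus name the digits after Os are the chromosome, and the later digits follow the order along it.

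Library totals ran from 9.485 M reads (mutant, drought) to 13.521 M reads (ZH11, drought). Levels are given as CPM, read numbers per M library reads, with library sizes corrected by the TMM method, whose factors ran from 0.754 to 1.21. OsbZIP23 itself (LOC_Os02g52780) stood at 32.5, 11.8 and 1325 CPM under normal growth in ZH11, the mutant and the overexpressor, and at 479.6, 158 and 457 CPM under drought. The overexpressor under drought was therefore close to droughted ZH11 in its OsbZIP23 transcript. Of 4 shoot markers, the 2 small subunits of Rubisco and a light-harvesting protein fell with drought, and LOC_Os12g17600 went from between 7747 and 11550 CPM to between 34.4 and 207 CPM. The fourth, Rubisco activase (LOC_Os11g47970), did not pass (log2 fold change -0.12, adjusted p = 0.877), at 1656, 939 and 2481 CPM without stress and 1370.0, 2227 and 1017 CPM under drought in ZH11, the mutant and the overexpressor. Among the root markers Lsi1 (LOC_Os02g51110) stood at 3.65 to 9.94 CPM and Lsi2 (LOC_Os03g01700) had 0 reads in all 6 libraries. In such bulk samples fewer cells of a type and less RNA per cell cannot be told apart.

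Under drought the family shifted towards a few genes. Of the 72 members, 57 had enough reads to be tested, and 34 of these (59.6%) passed at an adjusted p under 0.05, against 53.6% of all 21409 tested genes. The members that rose numbered 21, or 36.8%, where 26.1% of all genes rose. Another 13, or 22.8%, fell, where 27.5% of all genes fell. The test was edgeR's quasi-likelihood test with terms for genotype and stress over the 6 libraries, 2-sided, with Benjamini-Hochberg adjustment over all tested genes. It uses the 3 genotypes as the repeats of drought. The median log2 fold change with drought was 0.46 over the 57 members and -0.15 over all tested genes. Under total count scaling 17 members rose and 16 fell, with a median of all genes of -0.55. With limma on the deposited FPKM 18 rose and 17 fell. The shares of all genes called under these and every other alternative setting are not given here. Such counts are therefore not compared with other genes. Without the ZH11 normal library only 12 members passed (9 rose, 3 fell), and without the ZH11 drought library 11 passed (8 rose, 3 fell).

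A direct look at the levels gave similar counts. In 23 tested members, or 40.4%, all 3 drought libraries lay above all 3 normal libraries, which held for 31% of all tested genes. In 17 members, or 29.8%, all drought libraries lay below all normal ones, against 34.6% of all genes. Each of the 34 members that passed went the same way in all 3 genotypes. The test uses the genotypes as its repeats and so favours such genes, and this agreement is no further support. All 5579 genes that rose likewise had a log2 drought ratio above 0 in each genotype. Their lowest ratios were 0.071 (ZH11), 0.079 (mutant) and 0.042 (overexpressor). In 11 of the 34 the call held under all 14 alternative settings. The matching share of all genes that passed is not given, so this count is not read as a trait of the members. Some of the settings left out a library, and the runs without either library of a genotype are not separate checks. The 11 were LOC_Os01g19130, LOC_Os03g55320, LOC_Os02g27220, LOC_Os04g52000, LOC_Os03g09220, LOC_Os03g10950, LOC_Os06g33549 and LOC_Os07g37890, which rose, and LOC_Os12g39120, LOC_Os01g43100 and LOC_Os01g07090, which fell. The other 23 lost their call without the ZH11 drought library, and all of these but LOC_Os05g04360 also without the ZH11 normal library.

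**Figure D1:**
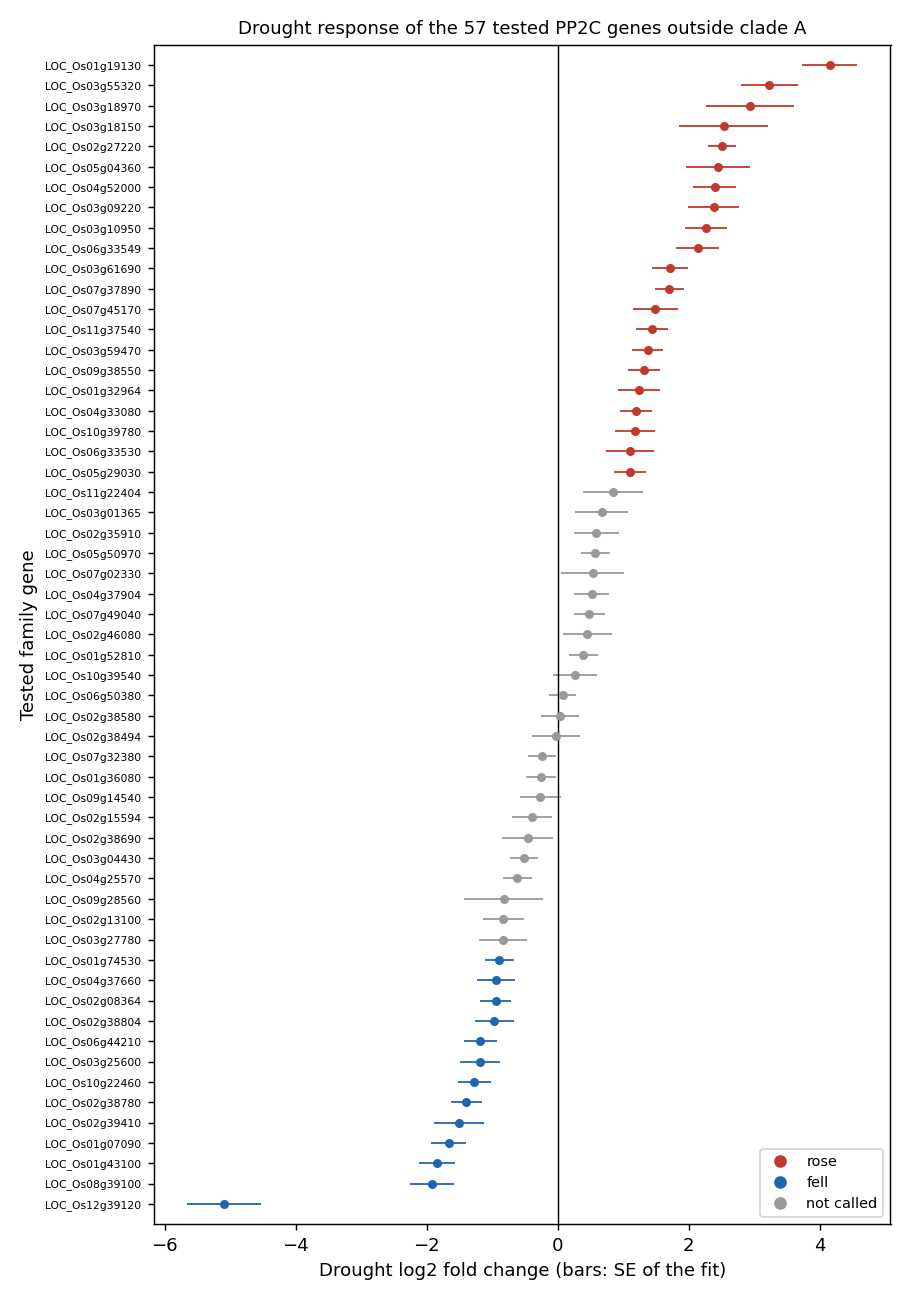
Fitted drought log2 fold change of each of the 57 tested family genes (points), ordered by size. Bars give the standard error (SE), derived from the F statistic of the fit. Red points are the 21 genes that rose, blue points the 13 that fell and grey points the 23 that did not pass; the values run from -5.09 to 4.16.

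The largest rise was that of LOC_Os01g19130. Under normal growth it had 22.9 (ZH11), 17.8 (mutant) and 27.7 CPM (overexpressor), and under drought it had 485, 504 and 259 CPM. All drought libraries lay far above the normal ones, and the overexpressor was the lowest of the 3 under drought. The fitted change was 17.8-fold (log2 fold change 4.16, SE 0.42, adjusted p = 0.00101 in edgeR). LOC_Os03g55320 was the most abundant member under drought. It went from 72.6, 86.9 and 80.7 CPM in ZH11, the mutant and the overexpressor to 827, 1299 and 391 CPM. The droughted mutant was the highest library and the droughted overexpressor the lowest of the stressed plants, still well above every normal library. The fitted rise was 9.42-fold (log2 fold change 3.24, SE 0.43, adjusted p = 0.00227 in edgeR).

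Several further members rose about as steeply as each other. LOC_Os02g27220 had 18.5, 20.6 and 15.2 CPM without stress and 104, 127 and 81.9 CPM under drought, in the same order of genotypes. Every drought library lay far above every normal one. The log2 fold change was 2.51, and its SE of 0.21 was the smallest among the 10 largest rises (adjusted p = 0.000726 in edgeR). LOC_Os04g52000 had 36.6, 34.3 and 41.3 CPM without stress and 212, 274 and 130.1 CPM under drought (log2 fold change 2.4, SE 0.33, adjusted p = 0.0026). LOC_Os03g09220, which has 6 transcripts in the tables, had 27.9, 28.6 and 30.2 CPM without stress and 184, 235 and 77.3 CPM under drought. In both genes the normal libraries lay close together and the drought libraries spread widely, with the mutant highest and the overexpressor lowest. The fitted change of LOC_Os03g09220 was 2.38 on the log2 scale (SE 0.39, adjusted p = 0.00433).

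LOC_Os05g04360 and LOC_Os03g18150 had the widest spread between genotypes among the abundant genes that rose. LOC_Os05g04360 went from 29.5, 23.3 and 32.1 CPM to 186, 268 and 70.4 CPM, again with the mutant on top. It rose by 2.45 on the log2 scale (SE 0.49, adjusted p = 0.00871), which came to an adjusted p of 0.0515 without the ZH11 drought library. LOC_Os03g18150 went from 24.0, 15.5 and 30.2 CPM to 148, 286 and 50.8 CPM. Here the mutant was the lowest normal library and the highest drought library, and the overexpressor the reverse. The fitted change was 2.54 on the log2 scale (SE 0.68, adjusted p = 0.0232), with an adjusted p of 0.0943 without the ZH11 drought library.

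LOC_Os03g10950 rose from 16.5, 10.1 and 7.46 CPM to 45.9, 66.7 and 45.4 CPM (log2 fold change 2.27, SE 0.32, adjusted p = 0.0028). ZH11 had the highest level without stress, so its own drought ratio was the smallest of the 3. LOC_Os06g33549 rose from 1.76, 1.91 and 2.15 CPM to 7.70, 6.59 and 12.4 CPM (log2 fold change 2.14, SE 0.33, adjusted p = 0.00343). Its neighbour in the locus order, LOC_Os06g33530, rose as well, by 1.11 on the log2 scale (SE 0.36, adjusted p = 0.0441). The droughted overexpressor was the highest library for both. LOC_Os03g18970 was a low gene with 9, 7 and 6 reads under normal growth and 45, 9 and 122 reads under drought. It had 0.661, 0.477 and 0.497 CPM without stress and 3.85, 1.26 and 12.1 CPM with it, a log2 fold change of 2.93 (SE 0.67, adjusted p = 0.0132). The droughted mutant was barely above the normal libraries, and the call was lost when either ZH11 library was left out.

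The other members that rose changed less. LOC_Os03g59470 was already among the abundant genes without stress, at 93.0, 80.9 and 81.9 CPM, and had 249.8, 214 and 201 CPM under drought. All 3 genotypes moved nearly in parallel, by 1.37 on the log2 scale (SE 0.23, adjusted p = 0.00465). The remaining 9 genes that rose had log2 fold changes from 1.10 (LOC_Os05g29030) to 1.72 (LOC_Os03g61690). In LOC_Os05g29030 the groups overlapped, with 9.77, 15.5 and 5.47 CPM without stress and 24.3, 36.2 and 9.10 CPM under drought. Its call, with an adjusted p of 0.0121, was lost under total count scaling and when either ZH11 library was left out.

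**Figure D2:**
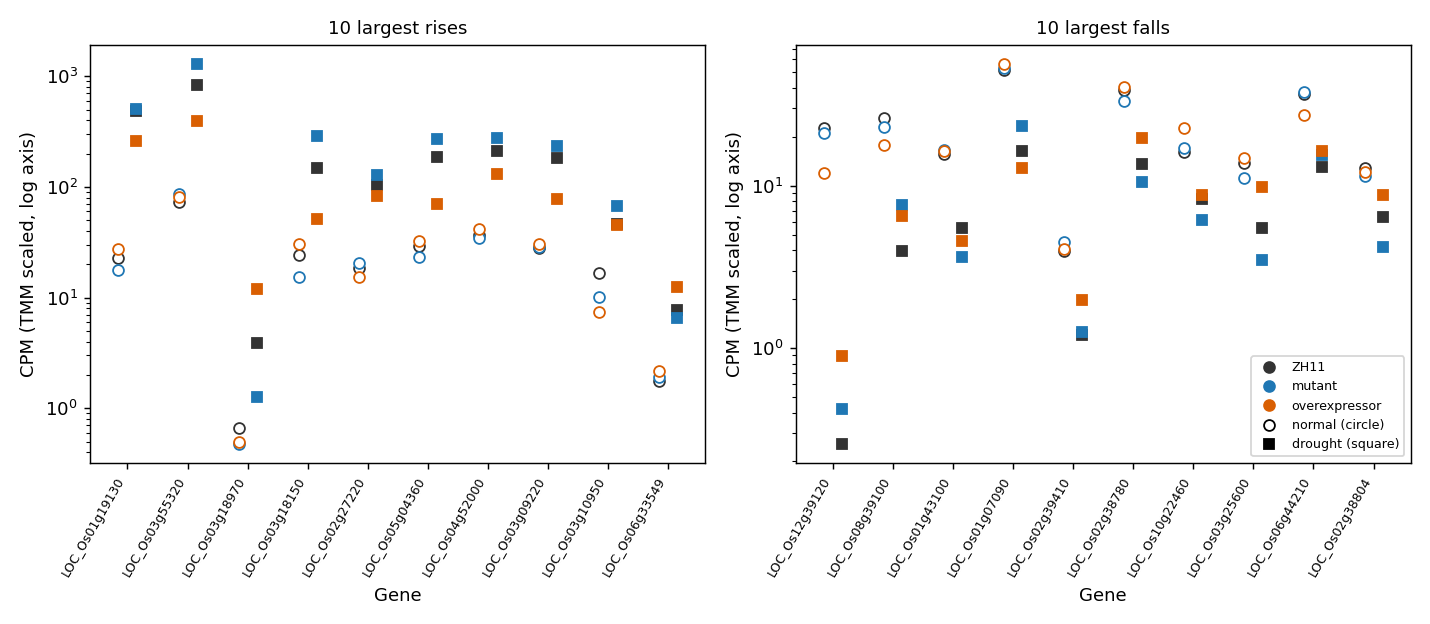
Levels in CPM (log axis) of the 10 members with the largest rises (left) and the 10 with the largest falls (right) that passed the test. Each point is 1 library, circles are normal and squares drought, and colour marks the genotype; LOC_Os03g55320 reached 1299 CPM in the droughted mutant and LOC_Os12g39120 was down to 0.257 CPM in droughted ZH11.

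The steepest fall was that of LOC_Os12g39120. It had 22.8, 21.1 and 11.9 CPM in normal ZH11, mutant and overexpressor and 0.257, 0.421 and 0.890 CPM under drought. The drought values rest on 3, 3 and 9 reads, and the normal ones on 143.5 reads or more. The fitted change was a 34.0-fold fall (log2 fold change -5.09, SE 0.56, adjusted p = 0.00131 in edgeR). The other falls were much smaller. LOC_Os08g39100 had 26.1, 22.9 and 17.8 CPM without stress and 3.94, 7.57 and 6.53 CPM under drought, a log2 fold change of -1.92 (SE 0.34, adjusted p = 0.00543). Its call was lost when either ZH11 library was left out.

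LOC_Os01g43100 and LOC_Os01g07090 fell in every genotype with little spread among the normal libraries. LOC_Os01g43100 had 15.7, 16.5 and 16.4 CPM without stress and 5.47, 3.65 and 4.55 CPM under drought (log2 fold change -1.84, SE 0.28, adjusted p = 0.00323). LOC_Os01g07090 had 51.9, 53.1 and 56.5 CPM without stress and 16.2, 23.3 and 12.8 CPM under drought (log2 fold change -1.67, SE 0.26, adjusted p = 0.00382). LOC_Os02g39410 fell by 1.51 on the log2 scale, from 3.96, 4.50 and 4.06 CPM to 1.20, 1.26 and 1.98 CPM. LOC_Os02g38780 had 38.6, 33.1 and 40.8 CPM without stress and 13.6, 10.5 and 19.8 CPM under drought (log2 fold change -1.40, SE 0.24, adjusted p = 0.00483). The droughted overexpressor stayed highest for LOC_Os02g38780 and lowest for LOC_Os01g07090. The next falls were those of LOC_Os10g22460 (-1.27 on the log2 scale), LOC_Os03g25600 (-1.18), LOC_Os06g44210 (-1.18) and LOC_Os02g38804 (-0.96). The last 3 genes that fell were LOC_Os02g08364, LOC_Os04g37660 and LOC_Os01g74530, by 0.94, 0.94 and 0.89 on the log2 scale, and in LOC_Os02g08364 the groups overlapped. Except for LOC_Os12g39120, LOC_Os01g43100 and LOC_Os01g07090, the calls of these falling genes were lost when either ZH11 library was left out.

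The 23 tested members that did not pass included abundant genes. LOC_Os06g50380 had 91.2, 99.9 and 92.1 CPM without stress and 95.5, 110.2 and 93.7 CPM under drought, in ZH11, the mutant and the overexpressor. The groups overlapped, and the log2 fold change was 0.08 (SE 0.21, adjusted p = 0.774), which turned to -0.32 under total count scaling and to -0.31 with limma on FPKM. LOC_Os01g36080, the member described as kinase and phosphatase, had 25.4, 32.1 and 23.5 CPM without stress and 18.2, 25.4 and 24.8 CPM under drought (log2 fold change -0.25, adjusted p = 0.388). Closest to the threshold on the outside were LOC_Os04g25570 (-0.61, adjusted p = 0.0555), LOC_Os05g50970 (0.58, adjusted p = 0.0642) and LOC_Os02g13100 (-0.83, adjusted p = 0.066), whose drought and normal libraries did not overlap. Closest on the inside was LOC_Os06g33530.

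The 15 members that were not tested had few or no reads. None had more than 11 reads or 0.989 CPM in any library. LOC_Os02g42250 and LOC_Os03g38920 had 0 reads in all 6 libraries. For a count of 0, the upper 95% bound on the expected count is about 3 reads per library. The highest of the 15, LOC_Os04g49490, had 36 reads over the 6 libraries together. LOC_Os12g01770 had 1, 1 and 2 reads without stress and 8.5, 5 and 10.5 reads under drought, too few for the test.

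The make-up of the family was compared per gene length, on the deposited FPKM (a level per gene length and library depth). Without stress, transcripts were spread over many members. The most abundant was LOC_Os06g50380 in all 3 genotypes, with 6.55%, 7.24% and 6.69% of the summed FPKM of the 72 genes in ZH11, the mutant and the overexpressor. Under drought LOC_Os03g55320 led in all 3, with 24.3%, 29.9% and 18.0%. LOC_Os01g19130 came second in every drought library, with 15.2%, 12.4% and 12.7%, after 1.97%, 1.54% and 2.4% without stress. The 3 most abundant genes of each library together held between 18.5% and 19.8% of the family's FPKM under normal growth. Under drought they held 46.1% (ZH11), 49.1% (mutant) and 38.3% (overexpressor).

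Some other abundant members lost rank. LOC_Os01g07090 went from 5.33%, 5.50% and 5.85% of the family's FPKM to 0.609%, 0.686% and 0.762%, that is from rank 4, 4 and 3 to rank 23, 22 and 26. LOC_Os06g50380 went to 2.51%, 2.29% and 3.83%, with CPM values close to those without stress. LOC_Os03g59470 held 6.09%, 5.35% and 5.41% without stress and 5.98%, 4.02% and 7.55% under drought. Its rank went from 2 to 4 in ZH11 and from 5 to 7 in the mutant, but from 4 to 3 in the overexpressor. Members at 10 FPKM or more numbered 28 or 29 in the normal libraries and 22 to 24 in the drought libraries.

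**Figure D3:**
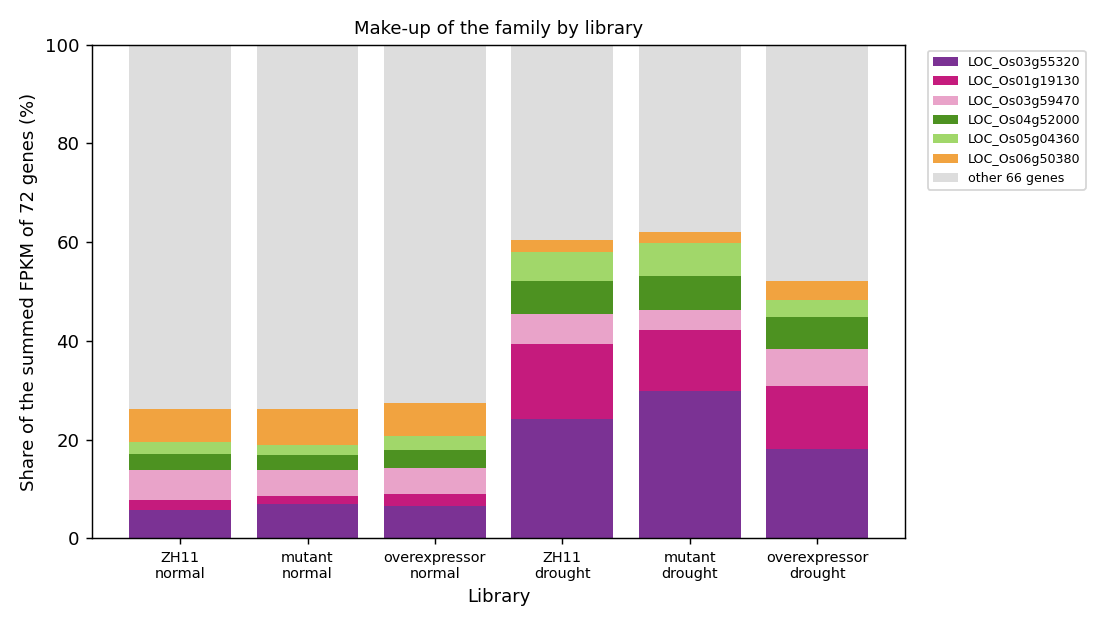
Share of the summed FPKM of the 72 genes, in percent, held by the 6 members with the highest mean FPKM (colours) and by the other 66 genes (grey), for each of the 6 libraries. LOC_Os03g55320 went from 5.82% to 24.3% in ZH11, from 7.01% to 29.9% in the mutant and from 6.54% to 18.0% in the overexpressor.

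Summed over the 72 genes, the level per length was 758.5, 812 and 753.9 FPKM in normal ZH11, mutant and overexpressor and 1618, 1792 and 1201 FPKM under drought. The drought sums lay above the normal ones in each genotype, with the overexpressor lowest. The members held 0.147%, 0.156% and 0.147% of all reads without stress and 0.302%, 0.330% and 0.230% under drought. Without LOC_Os03g55320 the summed CPM still went from 1248, 1208 and 1235 to 2668, 3088 and 1890. The 9 clade A genes, set beside them, had summed levels of 150.4, 164 and 229 FPKM without stress and 1974, 1373 and 1219 FPKM under drought. In clade A the order of the droughted genotypes was thus ZH11, mutant, overexpressor, and among the 72 genes it was mutant, ZH11, overexpressor; this difference in order was not tested, with 1 library per group.

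By locus name, chromosomes 2 and 3 hold the most members. Chromosome 3 holds 13 members, of which 11 were tested, 7 rose and 1 fell, with a median log2 fold change of 1.72. That is 63.6% and 9.09% of those tested, where 26.1% of all genes rose and 27.5% fell. Chromosome 2 holds 18, of which 12 were tested, 1 rose (8.33%) and 4 fell (33.3%), with a median of -0.43. On chromosome 2, 9 members lie between LOC_Os02g38494 and LOC_Os02g39480. Of these, 6 were tested, 0 rose and 3 fell (LOC_Os02g38780, LOC_Os02g38804 and LOC_Os02g39410), and their median was -0.71. Over all tested genes the median was -0.15. With so few genes in each group and no test, nothing is read from these counts. Neighbouring copies may share reads, and how the authors' counting treated such reads is not given in the sources used here, so the split between close neighbours is uncertain. Of a neighbouring pair on chromosome 7, LOC_Os07g49040 had between 10.4 and 20.9 CPM and LOC_Os07g49070 at most 4 reads in any library.

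The tables also give the number of transcripts of each gene. Of the 51 members with 1 transcript 37 were tested, and of the 21 with more than 1 transcript 20 were. Among the former 14 rose (37.8%) and 8 fell (21.6%), and among the latter 7 rose (35%) and 5 fell (25%), beside 26.1% and 27.5% of all tested genes. The medians were 0.54 and 0.33 on the log2 scale.

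The question of what OsbZIP23 does to these genes was addressed by the mutant and the overexpressor. In the mutant no member passed against ZH11 over both stress states (0 of 57; 0.014% of all tested genes passed, 3 genes). The edgeR fit gave 0 members with an unadjusted p under 0.05, and DESeq2 called 0. In the overexpressor no member passed either (0 of 57; 0.0187% of all genes, 4 genes), DESeq2 called 0, and 1 member had an unadjusted p under 0.05 in edgeR. That member was LOC_Os05g29030, at 9.77 and 24.3 CPM in normal and droughted ZH11 and 5.47 and 9.10 CPM in the overexpressor. The fitted value was -1.13 on the log2 scale (SE 0.30, adjusted p = 0.848 in edgeR). In the mutant the same gene stood higher, at 15.5 and 36.2 CPM, with a log2 fold change of 0.62 (SE 0.29). With 2 residual degrees of freedom these tests had little room, and a missing call does not show that levels were alike.

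Other members with large fitted genotype values had a wide error. Among members with a mean of at least 1 CPM, the lowest in the mutant were LOC_Os03g18970 at -1.03 (SE 0.83), LOC_Os02g38690 at -0.76 (SE 0.48) and LOC_Os01g32964 at -0.47 (SE 0.39). The highest, after LOC_Os05g29030, were LOC_Os07g02330 at 0.59 (SE 0.58) and LOC_Os04g37904 at 0.58 (SE 0.33). In the overexpressor LOC_Os07g45170 stood at -1.01 (SE 0.42) and LOC_Os03g10950 at -0.61 (SE 0.38), while LOC_Os03g18970 stood at 1.01 (SE 0.73), LOC_Os02g08364 at 0.56 (SE 0.29) and LOC_Os06g33549 at 0.51 (SE 0.39). Below that level, LOC_Os09g28560 stood at -1.54 (SE 0.77) in the mutant. These are log2 fold changes, and none passed.

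Single libraries were then set against each other, with no test, as ratios of CPM with exact 95% intervals that cover counting error only. Without stress the genotypes were close. Of 57 members with at least 10 reads in either library, 0 were 2-fold higher in the mutant than in ZH11 and 1 was 2-fold lower, where the shares of all genes were 3.44% and 4.03%. That 1 was LOC_Os09g28560, at 1.69 CPM in ZH11 and 0.409 CPM in the mutant. In the overexpressor 0 of 57 were 2-fold higher and 1 was 2-fold lower (2.36% and 3.86% of all genes), namely LOC_Os03g10950, 2.22-fold lower (1.73–2.86). LOC_Os05g29030 was 1.59-fold higher (1.28–1.98) in the mutant and 1.79-fold lower (1.32–2.44) in the overexpressor. LOC_Os02g13100 was 1.75-fold lower (1.53–1.99) in the mutant, and LOC_Os02g35910 was 1.57-fold higher (1.24–2.0) in the overexpressor.

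More members were 2-fold apart between genotypes under drought, and so were more of all genes. In the mutant 1 of 55 members (1.82%) was 2-fold higher than in ZH11, against 5.97% of all genes. Another 2 (3.64%) were 2-fold lower, against 6.07% of all genes. LOC_Os07g02330 was the higher one, with 13.9 (ZH11), 38.1 (mutant) and 8.90 CPM (overexpressor). Without stress it had 14.4, 9.81 and 10.6 CPM, so the droughted mutant stood alone above the other 5 libraries, 2.75-fold (2.26–3.36) over droughted ZH11. The lower ones were LOC_Os03g18970, 3.05-fold (1.47–7.10), and LOC_Os02g38690, 2.79-fold (1.55–5.39), both on few reads. LOC_Os03g18150 was 1.93-fold higher (1.81–2.06) and LOC_Os04g37904 1.85-fold higher (1.69–2.02).

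In the droughted overexpressor 1 of 57 members (1.75%) was at least 2-fold higher than in droughted ZH11, against 11.2% of all genes. Another 6 (10.5%) were 2-fold lower, near the 8.51% of all genes. The higher one was LOC_Os03g18970, 3.13-fold (2.21–4.51). The lower ones all rose with drought, and 81.5% of all genes that rose had a smaller drought ratio in the overexpressor than in ZH11. The lower members were LOC_Os03g18150, 2.91-fold lower (2.64–3.22), LOC_Os05g04360, 2.64-fold lower (2.42–2.88), LOC_Os05g29030, 2.67-fold lower (2.10–3.42), LOC_Os03g55320, LOC_Os03g09220 and LOC_Os07g45170. LOC_Os03g55320 stood at 0.473 of its ZH11 level (0.455–0.491) in the overexpressor and at 1.57 times that level (1.53–1.62) in the mutant.

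Set within each genotype, the drought contrast gave 21 of 58 members at least 2-fold higher and 11 at least 2-fold lower in ZH11, where 25% and 29.5% of all genes were. In the mutant 21 of 55 were higher and 12 lower (26.5% and 32.7% of all genes). In the overexpressor 17 of 58 were higher and 8 lower (20.1% and 20.6% of all genes). LOC_Os01g19130 was 21.2-fold higher (18.9–23.8) in ZH11, 28.3-fold (25–32.2) in the mutant and 9.35-fold (8.34–10.5) in the overexpressor. LOC_Os03g18150 had the widest range, with 6.16-fold (5.47–6.95), 18.5-fold (16.1–21.3) and 1.68-fold (1.47–1.93). The range was narrow for LOC_Os02g27220, with 5.64-fold (4.92–6.49), 6.15-fold (5.40–7.03) and 5.37-fold (4.57–6.34). The intervals of LOC_Os01g19130 and of LOC_Os03g18150 do not overlap between the 3 genotypes, and those of LOC_Os02g27220 do.

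Over the 21 members that rose, the median log2 drought ratio was 1.65 (ZH11), 1.85 (mutant) and 1.34 (overexpressor). In the overexpressor 17 of the 21 (81.0%) had a smaller ratio than in ZH11, and of all genes that rose 81.5% did, so the share of members was near that of all genes. In the mutant 14 of the 21 (66.7%) had a larger ratio than in ZH11, against 57.5% of all genes that rose. All 21 were counted in each genotype, LOC_Os03g18970 included, which had only 7 and 9 reads in the mutant. The medians over all genes that rose were 1.86, 1.98 and 1.39. LOC_Os03g18970 and LOC_Os03g10950 were among the 4 members whose ratio was larger in the overexpressor than in ZH11. LOC_Os10g39780 went against the mutant's tendency, with 3.28-fold (2.92–3.70) in ZH11, 1.38-fold (1.22–1.57) in the mutant and 2.57-fold (2.28–2.90) in the overexpressor. Over the 13 members that fell the medians were -1.39, -1.40 and -1.03, and the ratio was nearer to 0 in the overexpressor than in ZH11 in 9 (69.2%), against 81.4% of all genes that fell. A dependence of the drought effect on genotype could not be tested with 1 library per group.

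**Figure D4:**
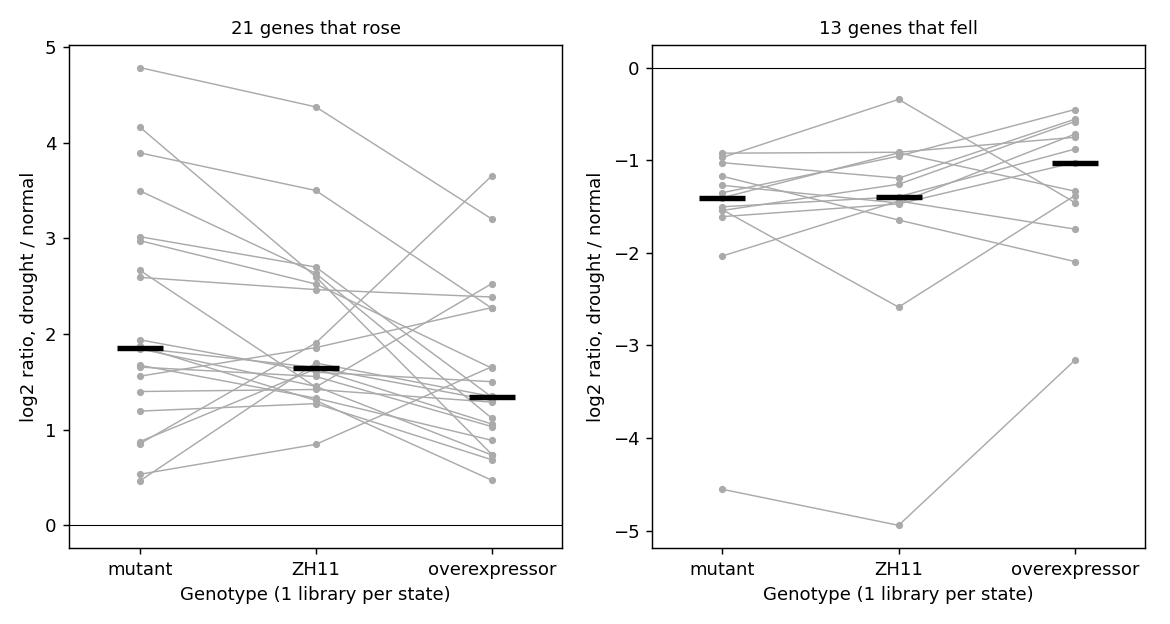
Log2 ratio of drought to normal CPM (each plus 0.5) within the mutant, ZH11 and the overexpressor for the 21 members that rose (left) and the 13 that fell (right). Each line is 1 gene and each black bar the median; LOC_Os03g18970 is drawn and counted in the mutant although it had under 10 reads in both libraries there, and the bars stand at 1.85, 1.65 and 1.34 on the left.

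Genes of the kinds that Arabidopsis PP2C enzymes act with were counted beside the members. Of 9 tested SAUR genes of 59 in the tables, 3 rose (33.3%) and 2 fell (22.2%), shares near the 26.1% and 27.5% of all tested genes. LOC_Os02g42990 rose by 3.83 on the log2 scale, LOC_Os04g52670 by 2.80 and LOC_Os06g50040 by 1.68. LOC_Os10g36703 fell by 1.65, from 186, 172 and 173 CPM to 55.9, 104 and 30.5 CPM, and LOC_Os06g45970 had 0 reads in all drought libraries. Of 12 genes with H(+)-ATPase in their description, taken here as plasma membrane proton pumps, 6 were tested, 2 rose and 2 fell (33.3% each). LOC_Os03g48310 rose from 5.36, 5.79 and 4.47 CPM to 260.4, 313 and 123 CPM and LOC_Os07g09340 from 163, 187 and 184 CPM to 1404, 1576 and 836 CPM. LOC_Os04g56160 fell by 1.10 and LOC_Os12g44150 by 1.30 on the log2 scale. Of 39 tested MAP kinase pathway genes (53 in the tables) 12 rose (30.8%) and 8 fell (20.5%), with a median of 0.12, again shares near those of all genes.

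Among the remaining phosphatases, 8 of the 9 clade A genes rose and 0 fell, with a median of 3.68. Of 5 further genes with another PP2C wording, 3 were tested and 2 rose, namely LOC_Os02g46490 (pol-like 5) by 1.00 and LOC_Os12g09640 (phosphatase 2C5) by 1.48 on the log2 scale. XB15, the third, had 21, 21.4 and 22.7 CPM without stress and 59.4, 111 and 23.6 CPM under drought and just missed the threshold (log2 fold change 1.33, adjusted p = 0.0511). OsPP18, a PP2C of rice drought tolerance, rose from 43.7, 45.6 and 51.4 CPM to 145, 132 and 122 CPM (log2 fold change 1.5, adjusted p = 0.0034). Its known regulator SNAC1 (LOC_Os03g60080) rose by 5.20 on the log2 scale. Of 72 tested genes whose description matched other protein phosphatases (335 in the tables) 17 rose (23.6%) and 15 fell (20.8%), with a median of 0.10. Both shares were below the 26.1% and 27.5% of all genes. Many of the 335 carry the wording hydrolases. Without these, 56 of 67 genes were tested, 13 rose (23.2%) and 11 fell (19.6%). None of the genes of these lists passed in the mutant or in the overexpressor.

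The genes whose pattern over the 6 libraries was most like that of the most abundant members were many, since the libraries share the drought contrast. For LOC_Os03g55320 the closest of 14593 genes were LOC_Os10g35720 (a thioredoxin family protein), LOC_Os06g30970 (ubiquitin-conjugating enzyme 28) and LOC_Os04g52500 (an alpha/beta-hydrolase), each with Pearson's r of 0.9996 on log2(CPM + 0.5). In all 2832 genes had an r over 0.95 with it, 10 of them members. How many members were among the 14593 genes is not given, so the 10 are not read as a trait of the family. For LOC_Os01g19130 the closest were LOC_Os01g09252 (a WD40 repeat protein), LOC_Os06g46730 (a ubiquitin hydrolase-related protein) and LOC_Os02g33070 (an ATPase inhibitor), each with 0.9995. The member closest to LOC_Os03g55320 was LOC_Os04g52000 (r = 0.9953), and the one closest to LOC_Os01g19130 was LOC_Os03g61690 (r = 0.9990). Such values over 6 libraries are a description.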

How the data were processed

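RNA from 6 groups of rice shoots was analysed. The submitters' processing notes name TopHat2 2.0.8, Trimmomatic 0.32 and edgeR 3.6.0, with no role given. The genome build, the annotation, the counter and whether it used strand are not given in the sources used here, so reads of overlapping or antisense genes cannot be told apart. The deposited tables hold, per the file headers, expected counts (read numbers) per gene and FPKM. Between 13.9% and 16.8% of the authors' read numbers were not whole and ended in 0.5, and these were rounded to the nearest even whole number. The 56001 lines gave 55986 genes after 15 repeated names were summed.

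Genes that passed filterByExpr by stress (21409) were fitted with edgeR 4.0.16 in R 4.3.3, with TMM scaling and additive genotype and stress terms (quasi-likelihood, 2 residual and 4.02 prior degrees of freedom, common dispersion 0.0954). The fit was also run on simulated counts with few changed genes, a single dispersion and no effect of genotype. The real data differ in these respects, so nothing is concluded from that run. For ratios of 1 library to another 0.5 CPM was added for log2 values, a gene needed 10 reads in 1 of the 2, and exact (Clopper-Pearson) 95% intervals came from scipy 1.17.1. Such intervals and floors hold counting error alone, as no molecular identifiers are stated and each group was 1 library. The SE of a fitted edgeR value is its absolute log2 fold change divided by the square root of its F statistic. DESeq2 1.42.0 and limma 3.58.1 on log2(FPKM + 1) of the deposited FPKM were alternatives. Members, lists and tests were chosen with earlier results of these data known.

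Genes named are the 10 largest rises and falls with drought among those that passed, went the same way in all genotypes and had a mean of at least 1 CPM, the 6 of highest mean FPKM, the 3 largest fitted genotype values each way, and in each contrast of 1 library with 1 the 3 largest ratios each way with at least 50 reads. LOC_Os09g28560, the genes nearest the threshold, the neighbouring pairs and the low genes were named after their values were seen. So were LOC_Os10g39540, LOC_Os02g38494, LOC_Os01g74530, LOC_Os03g61690 and LOC_Os07g37890. The OsbZIP23 peak lists were not used, since no gene positions of their build were at hand, and no sequence is printed. Of the 72 members 0 matched the RefSeq gene table.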

Additional observations from a re-analysis of the deposited data

Results flagged for a closer look

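In 9 of 55 members the drought ratio went opposite ways in the mutant and the overexpressor. In 2 of these both counting intervals lay clear of a ratio of 1. The matching shares of all genes are not given, so these counts are not read as a trait of the members. LOC_Os10g39540 had 12.7 CPM in the normal and 25.5 CPM in the droughted mutant, a ratio of 2.01 (95% interval 1.63–2.48), and 17.6 and 12.6 CPM in the overexpressor, a ratio of 0.715 (0.569–0.895). The difference of the ratios was 1.49 on the log2 scale. LOC_Os02g38494 went the other way, with a ratio of 0.637 (0.394–0.999) for the mutant and 1.65 (1.20–2.29) for the overexpressor, a difference of -1.37. Among the other 7, LOC_Os07g02330 had a ratio of 3.89 (3.17–4.79) for the mutant and 0.839 (0.634–1.11) for the overexpressor, the latter with an interval that holds 1. With 1 library per group none of these differences was tested.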

How the results depend on the processing

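The count of members that passed with drought was 34 and ranged from 11 to 37 when 1 library was left out. The count that rose (21) ranged from 8 to 24 and the count that fell (13) from 3 to 13, with 8 falls without the mutant drought library. The lowest counts came without a ZH11 library, given with the drought counts. Where a library was left out, the lone library of that genotype was fitted exactly by its own genotype term. The drought term then rested on the remaining genotypes, so the runs without either library of a genotype are not separate checks. The other settings kept the drought counts within 1.5 times. The counts of 0 in the mutant and the overexpressor held in every alternative run with a genotype result. The stress term alone and limma on FPKM gave no such result. OsbZIP23 itself did not pass for genotype in the main fit, at 32.5 CPM in normal ZH11 and 1325 CPM in the normal overexpressor. Nothing is therefore concluded from these counts of 0. Of the untested counts, the 1 member at least 2-fold apart between mutant and ZH11 without stress became 0 with a pseudocount of 2 CPM and 0 with a minimum of 50 reads. For the overexpressor against ZH11 without stress, 1 became 2 with a pseudocount of 0.1 CPM and 0 with one of 2 CPM. For the mutant against ZH11 under drought, 3 became 1 with a pseudocount of 2 CPM. The cause was not tested. Over 33 named members and 14 settings, 460 fitted drought values were computed, of which 390 kept their direction and side of the threshold, 55 lost the call, 11 gained one and 4 changed direction. The 4 belong to genes that did not pass: LOC_Os06g50380 went from 0.08 to -0.32 with total count scaling and -0.31 with limma on FPKM, and LOC_Os07g02330 from 0.54 to -0.16 without the mutant normal library and -0.11 without the mutant drought library, with 1.00 at most, without the overexpressor drought library. Total count scaling moved the median of all genes from -0.15 to -0.55. The drought fit is paired by genotype, which is a term in it; the stress term alone called 35 members. Counts of members with an OsbZIP23 peak near the start, and their alternatives, were not run, for lack of gene positions of the peaks' build. Reads of 3 to 11 per library limit what can be said of the lowest members.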
